A study of Homo sapiens with 3 samples.

Results

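CAL27/5FU cells, which resist 5-fluorouracil (5FU), were compared with the CAL27 cells they came from by RNA-seq, across every gene with enough reads to measure. Genes entered the comparison when their mean over the libraries of CAL27, CAL27/5FU and CAL27/OXA cells was at least 10 counts, which kept 13676 of the 19220 genes of the count table. CAL27 is an oral squamous cell carcinoma (OSCC) line, and its library came from cells without drug. CAL27/5FU had been selected from CAL27 by long culture under rising 5FU and was then kept in 10 μM 5FU. CAL27/OXA was labelled as resistant to oxaliplatin (OXA) and kept in 10 μM OXA, and here it served the filter, the scaling and as a set of values beside those of CAL27/5FU. How many clones each resistant line descends from is not given in the sources used here. The drug was present in the resistant cultures, so that what came with resistance and what came with the drug in the medium cannot be told apart.

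The library of CAL27 held 41786182 counts, that of CAL27/5FU 37297713 and that of CAL27/OXA 43455488. Only 1 library per line had a label that matched its column and was used, so the differences have no replicate check and are given without p-values. Counts were scaled by TMM, a method that aligns the bulk of genes between libraries, and given as CPM, counts relative to the scaled library size. Genes count as higher or lower here where the log2 ratio of CAL27/5FU over CAL27 was beyond 1 or -1, called 2-fold. The ratios were computed with a prior count of 2, a small number added to the counts. They can therefore differ from the ratio of the printed CPM where counts are low. Intervals in brackets are exact 95% Clopper-Pearson intervals on the pair of counts. They cover counting error only, as does the floor of 3 counts that stands in for a count of 0 in a bound.

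Of the tested genes, 1157 (8.46%) were higher in CAL27/5FU and 919 (6.72%) were lower, and 11600 lay within 2-fold. The whole interval lay beyond 2-fold for 749 higher genes (5.48%) and 593 lower genes (4.34%). Higher genes made up 55.7% of the genes beyond 2-fold, and 67.2% when libraries were scaled by total counts, which moved the median of all tested genes from -0.0035 to 0.17 on the log2 scale. The median absolute log2 ratio was 0.33. The higher genes took 1.26% of all counts in CAL27 and 4.20% in CAL27/5FU. The lower genes took 9.32% in CAL27 and 3.18% in CAL27/5FU. More genes were thus higher than lower, while the lower genes held a larger share of the reads at the start.

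5FU is converted into nucleotides that block thymidylate synthase and enter RNA and DNA, and cells under it must cope with faulty nucleic acids. OSCC arises from stratified squamous epithelium, in which basal cells divide on the basement membrane and their daughters fill with keratins, join by desmosomes and end as a cornified layer. The gene groups below follow this order: the squamous programme, lipid and sugar metabolism, innate immunity, secreted signals, matrix, developmental regulators and the general machinery of the cell.

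**Figure D1:**
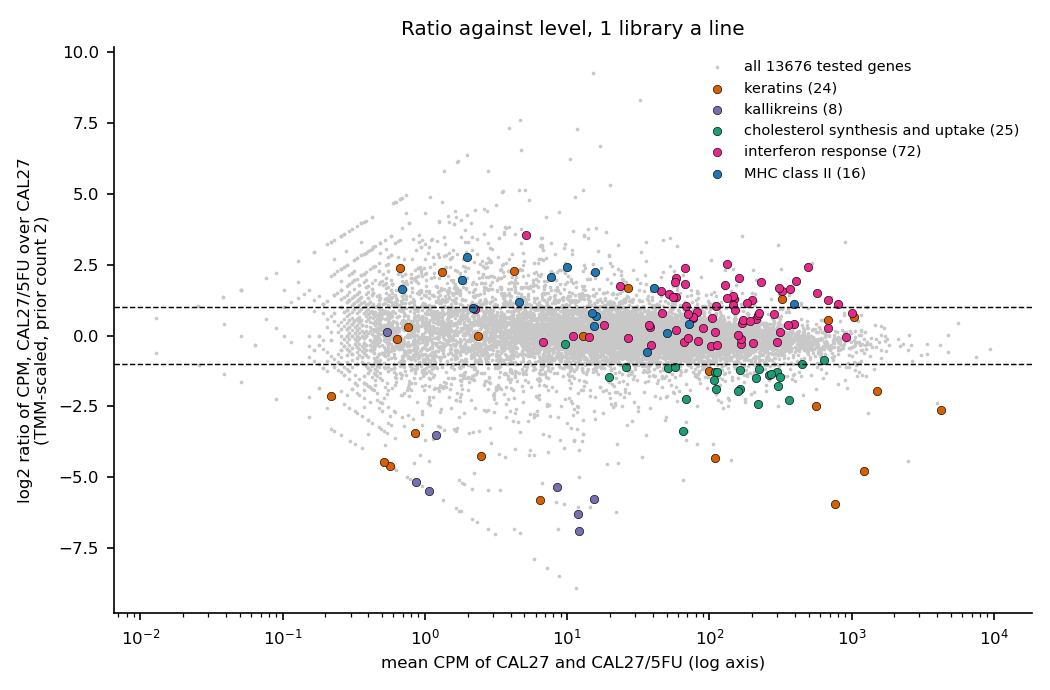
Each point is a tested gene, with the mean CPM of CAL27 and CAL27/5FU on a log axis against the log2 ratio of CAL27/5FU over CAL27. Dashed lines mark 2-fold. Kallikreins and keratins reach far below the lower line (-6.90 for KLK8), most sterol genes lie just below it, and most interferon genes lie above 0.

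The label of the cells was checked on cell type markers. All 12 squamous markers were detected in all 3 libraries, and 7 of them (KRT5, KRT14, KRT6A, KRT17, TP63, DSG3 and SFN) were lower in CAL27/5FU. Their levels summed to 17357 CPM for the parental line, 5294 for CAL27/5FU and 7823 for CAL27/OXA. EPCAM, CDH1, ITGB4, ITGA6 and LAMB3 of the same list, which mark epithelial and basal cells, lay within 2-fold. Of 7 markers of simple epithelium, KRT7 was higher, KRT19, MUC1, CLDN3 and CLDN4 were lower, and KRT8 and KRT18 lay within 2-fold. Their levels summed to 1743 CPM for the parental line and 2254 for CAL27/5FU, most of it from KRT8 and KRT18. Of 8 leukocyte markers, 6 had at most 7 counts in both lines and FCGR3A and TYROBP had 0, while CD68 had 3143 and 1827 counts and CD14 637 and 1290, the latter called higher. Of 9 fibroblast markers, COL3A1 and THY1 had 0 counts in both lines, and all 9 summed to 42.1 CPM for the parental line and 47.5 for CAL27/5FU. Of 6 endothelial markers, CDH5 (43 and 338 counts) and CLDN5 (2 and 8) were higher and VWF (44 and 19) was lower, and the sum was 2.64 and 9.58 CPM. The interval of CLDN5 (-0.33 to 5.27) held 0, and the gene passed the filter only through CAL27/OXA (31 counts). Melanocyte and neuroendocrine markers, 5 each, had 0 beyond 2-fold.

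Keratins, the intermediate filament proteins of epithelia, included the gene with the largest loss of CPM. Of 24 tested keratins, 13 were lower and 5 higher, with a median log2 ratio of -1.61. KRT5, the type II keratin of basal squamous cells, had 286124 counts in the parental library, 46083 under 5FU and 72716 under OXA, a log2 ratio of -2.64 (-2.66 to -2.63) for CAL27/5FU. KRT14, its type I partner, had 58222, 948 and 8423 counts, a ratio of -5.94 (-6.04 to -5.85). KRT15, a further basal keratin, had 92433, 3388 and 1937 counts, a ratio of -4.78. KRT5 and KRT14 form filaments together, and the level of KRT14 was lower by a larger factor (61.6-fold) than that of KRT5 (6.24-fold). KRT17, found in activated and transformed keratinocytes, had 93873, 24276 and 22967 counts.

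Some of the keratins that were higher belong to other settings. KRT7, a keratin of simple and glandular epithelia, had 493, 1609 and 285 counts, giving a log2 ratio of 1.70 (1.55 to 1.85). KRT80 had 7353, 18184 and 6359 counts, a ratio of 1.30. KRT81 and KRT86, hair keratins with near-identical sequences that short reads may not separate, were at 2.23 and 2.28. KRT8 and KRT18, the paired keratins of simple epithelium, lay within 2-fold at 0.64 and 0.54. In CAL27/OXA, KRT7, KRT80 and KRT86 had negative ratios against CAL27 (-0.97, -0.40 and -0.97), KRT81 was at 0.04 and KRT222, which was higher in CAL27/5FU (2.39), was at 0.67. KRT6A and KRT6B, and KRT14, KRT16 and KRT17, also share long stretches of sequence, and reads may have been split between them.

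Proteins of the cornified envelope, the cross-linked shell of the outermost cells, were lower in part. Of 22 tested genes of cornification, 12 were lower and 0 higher, with a median of -1.80. With a mean of at least 50 counts, 5 of 12 were lower and the median was -0.83, and the whole list took 0.0274% of all parental counts and 0.0221% of those of CAL27/5FU. SPRR1A, a small proline-rich envelope protein, had 243 counts in the parental library, 0 under 5FU and 6 under OXA, at least 81.4-fold lower in CAL27/5FU. SPRR1B had 331 counts, 1 and 18, a log2 ratio of -6.84 (-13.69 to -5.89). IVL, which encodes involucrin, had 74, 0 and 15 counts, at least 24.8-fold lower. TGM1, the transglutaminase that cross-links the envelope, had 710, 137 and 165 counts, a ratio of -2.36. The envelope proteins proper (median -2.28 over 14 genes) had a lower median than the 8 enzymes (-0.65), of which 3 were lower: ALOX12B, TGM1 and the lipid transporter gene ABCA12. PADI2, a protein-citrullinating enzyme, lay on the other side at 0.82.

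Kallikrein-related peptidases, secreted serine proteases that cut desmosomes as squames are shed, had the lowest median of the gene groups examined, -5.41. Of 8 tested members, 7 were lower. KLK5 had 1175 counts in the parental library, 20 under 5FU and 319 under OXA, a log2 ratio of -5.75 (-6.60 to -5.25). KLK8 had 941, 6 and 100 counts and KLK10 had 643, 14 and 141. KLK7 went from 83 counts to 0, at least 27.8-fold lower. KLK14 was the exception, with 20, 22 and 21 counts. The kallikrein genes lie side by side on chromosome 19. The cornified envelope genes and most S100 genes are likewise neighbours on chromosome 1, where 19 of the 28 tested genes from S100A10 to S100A1 were lower and 0 higher. S100 proteins are small calcium-binding proteins, and 10 of 16 were lower (median -1.29). S100A9, abundant in stressed squamous epithelium, had 62285, 23448 and 4980 counts, a ratio of -1.42. S100A2, which basal cells express, had 36866, 14738 and 42114 counts, lower in CAL27/5FU (-1.33) with a ratio of 0.00 in CAL27/OXA.

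Desmosomes, the plaques that rivet keratinocytes to each other, had 5 of 11 tested genes lower and 0 higher. PKP1, a plaque protein of stratified epithelium, had 10588, 507 and 267 counts, giving a log2 ratio of -4.39 (-4.52 to -4.26). JUP, which encodes plakoglobin, had 47950, 14677 and 18727 counts, and DSP, which encodes desmoplakin, had 32970, 14730 and 16589. DSG2 and PKP2, the cadherin and plaque protein also used outside squamous tissue, lay within 2-fold at -0.06 and 0.57. Among the 24 tested transcription factors of the squamous lineage, 14 were lower and 2 higher (median -1.20). TP63, the master regulator of stratified epithelium, had 23645, 9759 and 29498 counts, a ratio of -1.28 in CAL27/5FU and 0.13 in CAL27/OXA. GRHL2, which drives epithelial junctions, was lower in both resistant lines (-1.47 and -1.86). FOXE1 and GATA3 were the higher ones, from 18 to 80 counts for FOXE1 and from 21 to 63 for GATA3.

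**Figure D2:**
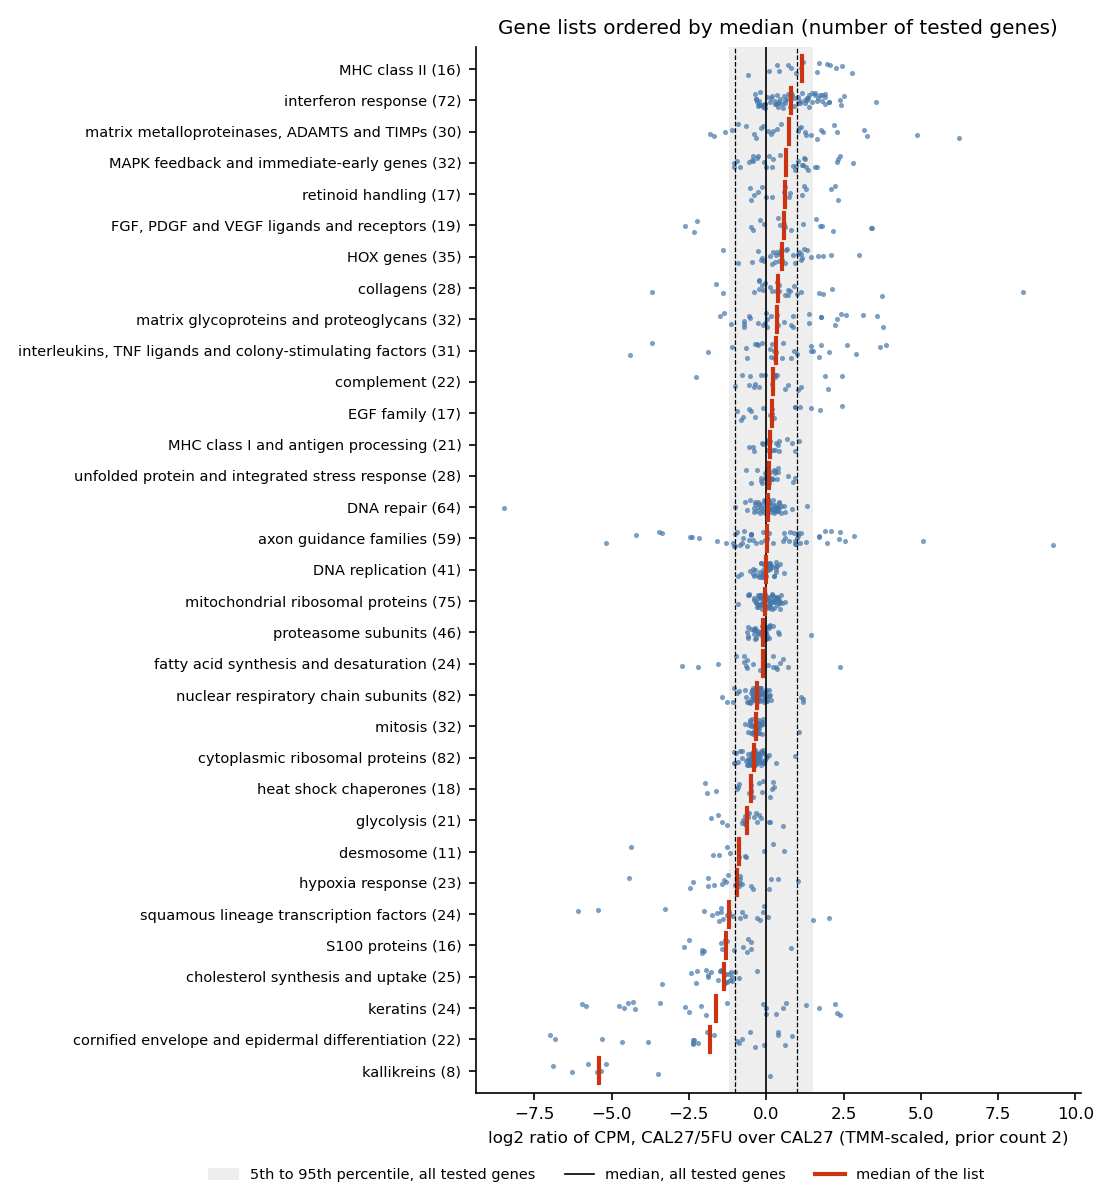
Points are the log2 ratios of CAL27/5FU over CAL27 of tested genes in the main gene lists described, ordered by the median of the list (red bar), with the number of tested genes in parentheses. The grey band spans the 5th to 95th percentile of all tested genes (-1.18 to 1.46). Kallikreins, cornified envelope genes, keratins and cholesterol genes lie at the bottom, MHC class II and interferon genes at the top, and the lists of the general machinery stay close to 0.

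Cholesterol synthesis was the most uniform of the lower groups. Sterol enzymes are switched on together by SREBF2 when membrane cholesterol is low. Of 25 tested genes of synthesis and uptake, 23 were lower, 0 were higher, and the median log2 ratio was -1.38, with a median of -1.05 in CAL27/OXA. The group took 0.653% of all parental counts, 0.270% of those of CAL27/5FU and 0.338% of those of CAL27/OXA. HMGCS1, the enzyme that makes HMG-CoA, had 23478, 4868 and 10262 counts, a ratio of -2.28 (-2.32 to -2.23). SQLE, which makes squalene epoxide, had 14524, 2713 and 3479 counts, a ratio of -2.43. The enzymes were lower from the mevalonate steps to the last sterol reductions, where DHCR7 was at -1.47.

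The regulator SREBF2 itself had 23290, 11659 and 13668 counts (-1.01), and fell within 2-fold when scaled by total counts, under which 19 genes of the list were lower. PMVK, a kinase of the mevalonate steps, was among those within 2-fold (-0.30). SQLE lies in a stretch of chromosome 8 described below in which most genes had a negative ratio. Fatty acid genes did not move as a block: 3 of 24 were lower and 1 higher. Among the lower ones, SCD, the desaturase that makes oleate, had 87692, 13420 and 6232 counts (-2.71) and ACSS2, which makes acetyl-CoA from acetate, had 8697, 1903 and 2594 (-2.20). FASN, the fatty acid synthase, was at -0.73.

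**Figure D3:**
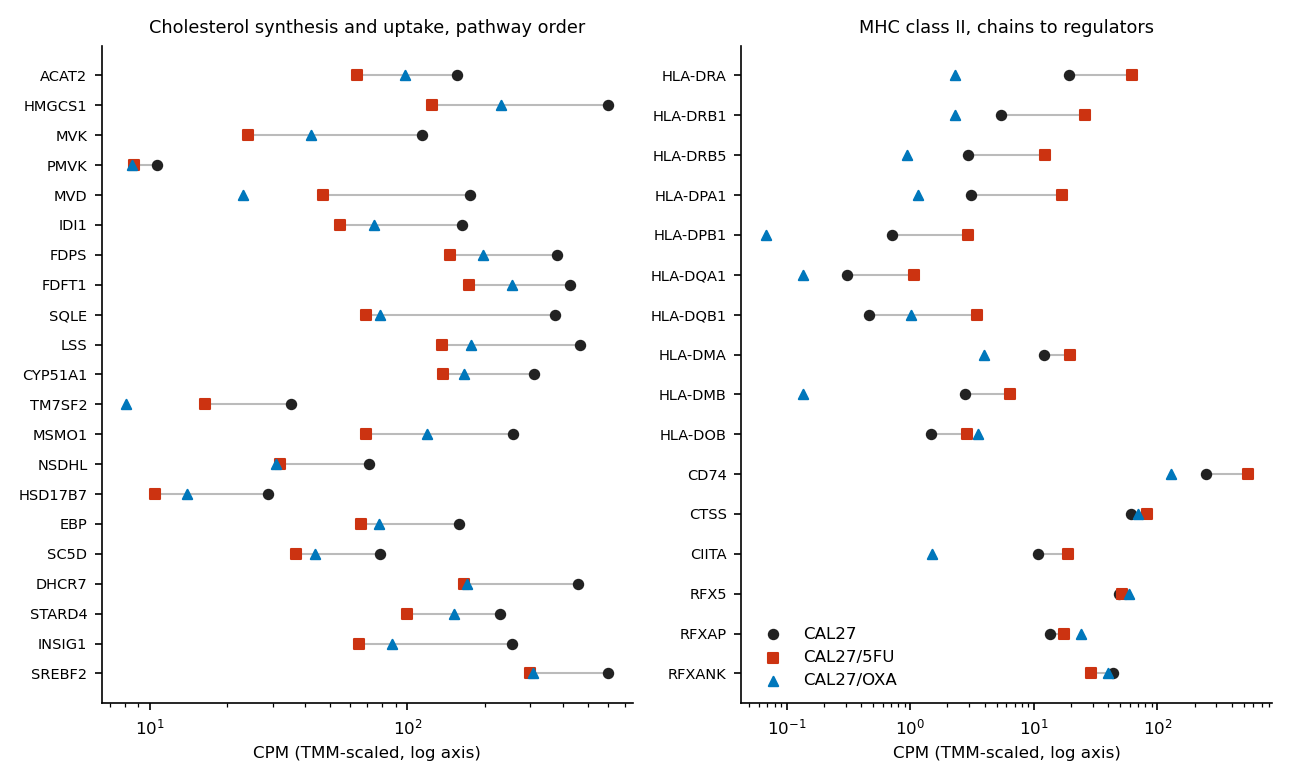
CPM on a log axis in the 3 libraries, 1 library per line, for 21 of the 25 genes of cholesterol synthesis and uptake (left, in pathway order, regulators last) and 16 genes of MHC class II (right, chains first, regulators last). Grey lines join CAL27 and CAL27/5FU. All 21 sterol genes shown have their CAL27/5FU point to the left of the CAL27 point and, in the MHC panel, 15 of 16 have it to the right, while most CAL27/OXA points of the class II chains lie furthest left.

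Genes of the hypoxia response, which HIF transcription factors switch on in low oxygen, and of glycolysis were lower in part. Of 23 hypoxia genes, 11 were lower and 1 was higher (median -0.93, and -1.08 in CAL27/OXA). NDRG1, a stress-responsive gene of differentiated epithelium, had 184650 counts in the parental library, 8569 under 5FU and 9925 under OXA, a log2 ratio of -4.44 (-4.47 to -4.41). CA9, a carbonic anhydrase and a standard hypoxia marker, had 18938, 7048 and 4108 counts (-1.43), and EGLN3, an oxygen-sensing hydroxylase, had 20132, 3652 and 2373 (-2.47). HIF1A, the transcription factor subunit itself, was the higher member, with 32898, 67262 and 37164 counts, a ratio of 1.02 (1.01 to 1.04). The RNA of the regulator was thus higher while 11 genes of the list were lower, and protein was not measured here. VEGFA, another target, was at 0.39.

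Of 21 glycolysis genes, 4 were lower and 18 had a negative ratio (median -0.63). SLC2A1, the glucose transporter GLUT1, had 52701, 17856 and 12523 counts (-1.57), and GPI, which converts glucose 6-phosphate, had 71768, 26884 and 27278 (-1.42). ALDOC and ENO2 were at -1.78 and -1.28. The remaining enzymes lay within 2-fold. Together the list took 3.61% of all counts in CAL27 and 2.58% in CAL27/5FU. Heat shock chaperones followed with 3 of 18 lower and 0 higher: HSPB1, the small chaperone HSP27, had 34326, 9227 and 11179 counts (-1.90), HSPB8 was at -1.98, and HSPA1A was at -1.63. HSPA1A and HSPA1B differ at few positions, and their reads may have been split. The chaperones induced by misfolded protein in the endoplasmic reticulum and the integrated stress response gave 0 of 28 genes beyond 2-fold.

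The IGF axis held the gene with the largest loss of CPM after KRT5. IGFBP3, a secreted protein that binds insulin-like growth factors, had 261616 counts in the parental library, 50305 under 5FU and 20373 under OXA, a log2 ratio of -2.39 (-2.40 to -2.37). IGFBP4, another binding protein, went the other way with 255, 2565 and 1012 counts (3.31, 3.14 to 3.51). INSR, the insulin receptor, had 214, 3 and 181 counts, a ratio of -5.46 (-8.45 to -4.60), and its adaptor IRS1 had 1420, 4345 and 2461 (1.61). The low INSR count was found in CAL27/5FU and not in CAL27/OXA. IGF1R had a ratio of -0.88.

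**Figure D4:**
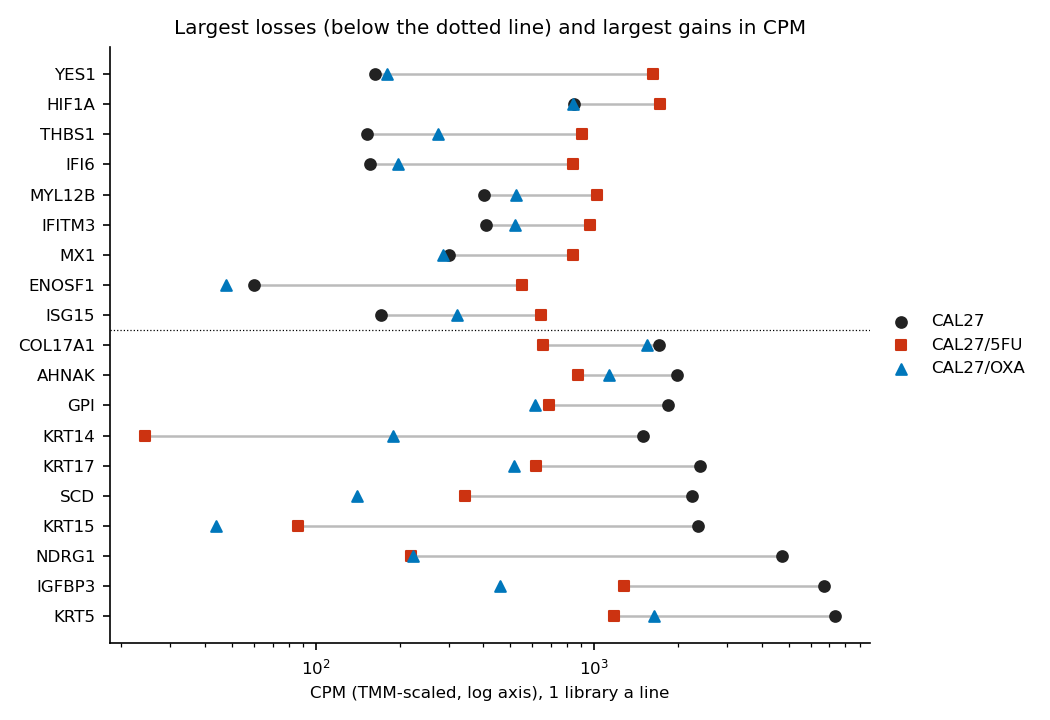
CPM on a log axis in the 3 libraries of the 10 genes beyond 2-fold with the largest loss and 9 of the 10 with the largest gain of CPM between CAL27 and CAL27/5FU. Circles are CAL27, squares CAL27/5FU and triangles CAL27/OXA. The CAL27/OXA triangles of most genes with a loss lie near or beyond the CAL27/5FU square, and those of most genes with a gain lie near the CAL27 circle.

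Genes of the interferon response were higher in part. Cells sense foreign or misplaced nucleic acid through receptors such as DDX58 (RIG-I) and IFIH1 (MDA5), secrete interferon, and respond to it through STAT and IRF transcription factors, which bind a DNA element called ISRE and switch on antiviral effectors. Of 72 tested genes, 30 were higher and 0 lower, with a median log2 ratio of 0.79, and 57 had a positive ratio. In CAL27/OXA the median was 0.02 and 2 genes were higher. Both comparisons share the CAL27 library. The group took 0.932% of all parental counts, 1.86% of those of CAL27/5FU and 1.02% of those of CAL27/OXA.

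The values are given by role, and differences between the roles were not tested. Of 8 sensors and adaptors, 3 were higher: ZBP1, which binds Z-form nucleic acid, with 30, 374 and 94 counts (3.55, 3.10 to 4.22), DDX58 with 3328, 8268 and 5529 counts (1.31) and IFIH1 (1.04). The DNA-sensing pair MB21D1 (cGAS) and TMEM173 (STING) lay at 0.31 and -0.10. Of 6 tested ligands and receptors, 0 were beyond 2-fold: IFNE was at 0.93 on 60 and 117 counts, the receptor chains IFNAR1 and IFNAR2 were at -0.20 and -0.33, and IFNB1 was among 5 ligand genes under the filter. Of 6 transcription factors, 1 was higher and 0 lower, and IRF7, IRF9 and STAT2 were at 0.82, 0.61 and 0.58. IRF3 and IRF1 were at 0.13 and -0.26. Effectors, 49 of the 72 tested genes of the list, gave 24 of its 30 higher genes, with a median of 0.91. Of 3 feedback inhibitors, 2 were higher: USP18, which shuts the receptor down, was at 1.81 and SOCS3 at 1.37. SOCS1 lay within 2-fold at -0.24.

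Promoters were compared with these values because the ISRE can be read in the DNA. The core searched was GAAA, 2 bases of any kind, then GAAA, on both strands, in the window from 250 bases before to 50 bases after each start in the RefSeq promoter table (GRCh38.p14). A gene counted as holding the core when any of its listed promoters did. The stretches below are the 200 bases before the start of IFI6, ISG15, IFITM3 and IFI44L, shown because these effectors were higher and their windows hold more than 1 core. Cores are in capitals, and each sequence is on the strand of its gene.

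IFI6, minus strand, chr1:27672193-27672392: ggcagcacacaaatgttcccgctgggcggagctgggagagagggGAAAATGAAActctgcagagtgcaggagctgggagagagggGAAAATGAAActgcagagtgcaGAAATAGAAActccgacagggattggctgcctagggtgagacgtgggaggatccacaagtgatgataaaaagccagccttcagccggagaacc

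ISG15, plus strand, chr1:1013297-1013496: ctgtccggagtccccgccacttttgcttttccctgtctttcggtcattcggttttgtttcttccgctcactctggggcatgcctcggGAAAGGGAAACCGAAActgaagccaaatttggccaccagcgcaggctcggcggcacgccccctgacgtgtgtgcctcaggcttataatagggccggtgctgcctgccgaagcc

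IFITM3, minus strand, chr11:320861-321060: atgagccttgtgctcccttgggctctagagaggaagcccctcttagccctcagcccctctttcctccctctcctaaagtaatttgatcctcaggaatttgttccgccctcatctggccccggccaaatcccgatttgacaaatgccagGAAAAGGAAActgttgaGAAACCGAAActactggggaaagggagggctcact

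IFI44L, plus strand, chr1:78620248-78620447: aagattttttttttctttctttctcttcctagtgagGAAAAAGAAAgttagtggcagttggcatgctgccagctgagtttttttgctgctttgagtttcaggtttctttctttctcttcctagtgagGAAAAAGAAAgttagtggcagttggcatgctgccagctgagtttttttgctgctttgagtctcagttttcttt

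IFI6 has 3 cores, which begin 156, 115 and 93 bases before its start, and ISG15 has 2 overlapping cores that begin 113 and 107 bases before. IFITM3 has 2 cores at 52 and 35 bases and IFI44L has 2 at 164 and 73. The IFI44L stretch holds an exact repeat of 85 bases, so that its 2 cores sit in 2 copies of the same sequence, and the longest repeat in the IFI6 stretch is 29 bases. IFI6, a mitochondrial antiviral protein, had 6092 counts in the parental library, 32796 under 5FU and 8790 under OXA. ISG15, a ubiquitin-like modifier, had 6676, 25204 and 14270 counts, giving a log2 ratio of 1.91. IFITM3, a membrane protein that blocks viral entry, had 15918, 37823 and 23122 counts, a ratio of 1.24, and it has close paralogs with which it may share reads. IFI44L had 1553, 8918 and 1728 counts.

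Of the 53 interferon genes with a listed promoter, 31 (58.5%) held the core, against 443 of 10648 tested genes (4.16%) and 1255 of 35116 promoters of the table (3.57%). Within the interferon list, 15 of the 31 genes with the core and 5 of the 22 without it were higher. Outside the list, 58 of 412 tested genes with the core (14.1%) were higher, against 779 of 10183 without it (7.65%). For CAL27/OXA these shares were 9.22% and 6.13%. The share of lower genes outside the list was 5.34% with the core and 6.04% without it. These shares describe the promoters, and binding was not measured.

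MHC class I and class II genes display peptides to T cells. Most genes of both lists had a positive ratio, and the difference between the lists was not tested. Among 21 genes of class I and antigen processing, HLA-F was higher and 0 were lower (median 0.13). The ISRE core was in 11 of the 17 with a listed promoter. Among 16 class II genes, 9 were higher and 0 lower, with a median of 1.16 in CAL27/5FU and -1.09 in CAL27/OXA. HLA-DRA, the alpha chain of the DR dimer, had 750 counts in the parental library, 2444 under 5FU and 102 under OXA, a log2 ratio of 1.69 (1.58 to 1.82) and of -3.04 in CAL27/OXA. CD74, the chaperone of class II assembly, had 9658, 21152 and 5724 counts (1.12). HLA-DRB1 and HLA-DPA1 were at 2.25 and 2.44. CIITA, the transactivator that class II promoters depend on, had 422, 739 and 67 counts, a ratio of 0.80. In CAL27/OXA, 8 genes of the list, CIITA among them, were more than 2-fold below CAL27, and HLA-DQB1 and HLA-DOB were more than 2-fold above it. HLA genes differ between people, and HLA-DRB1 and HLA-DRB5 are near copies, so the split of reads among them is uncertain. Of the 8 leukocyte markers, CD14 moved with the class II genes (637, 1290 and 341 counts), CD68, the most abundant, had 3143, 1827 and 5055, and PTPRC, which defines leukocytes, had 2, 0 and 0. Their sum was 97.3 CPM for the parental line, 80.0 under 5FU and 122 under OXA. The part of such cells in the class II values was not tested.

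Secreted signals of inflammation were mixed. Of 31 interleukins, TNF ligands and colony-stimulating factors, 10 were higher and 4 lower (median 0.30). IL6 had 60 counts in the parental library, 797 under 5FU and 242 under OXA, a log2 ratio of 3.68 (3.35 to 4.13). IL1A, an alarm cytokine of keratinocytes, had 7656, 20777 and 31436 counts (1.43), and CSF2, which encodes GM-CSF, had 389, 2405 and 1756 (2.62). IL24 and LIF were at 3.86 and 1.72. The receptor antagonists of the IL-1 family were lower: IL1RN had 804, 61 and 176 counts (-3.69, -4.13 to -3.35), and IL36RN had 81, 2 and 2 (-4.41, -8.42 to -3.45). IL36G, an agonist of the same family, was lower as well (-1.90). Of 15 chemokines, CXCL11, CCL5 and CXCL3 were higher and CCL2 was lower, with 7173, 2156 and 621 counts (-1.74). CXCL11, an interferon-induced chemokine, had 612, 2171 and 374 counts (1.82).

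Complement genes gave 5 higher and 2 lower of 22. Among the higher ones were regulators: CFI, the protease that inactivates complement, with 247, 1359 and 335 counts (2.44), and SERPING1, the inhibitor that guards the first step, with 165, 621 and 75 (1.89). C1QTNF1, of a family related to complement, was also higher. C5AR1, a receptor for the fragment C5a, was lower (-2.27).

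Growth factor signalling was examined from ligand to output. EGF receptors lay within 2-fold, with EGFR at 32753, 30287 and 29347 counts (-0.12) and ERBB2 at -0.36. Of 10 EGF family ligands, 4 were higher and 0 lower. EREG, which encodes epiregulin, had 635, 3518 and 2273 counts (2.46, 2.34 to 2.59), BTC had 111, 374 and 102 (1.73), and EGF and NRG2 were at 1.46 and 1.08. Within 2-fold, HBEGF and AREG were at 0.94 and 0.93, and NRG1, NRG4 and EPGN were at -0.93, -0.81 and -0.75. The FGF receptors went apart: FGFR3, a receptor of squamous epithelium, had 7805, 1562 and 805 counts (-2.33) and FGFR2 had 407, 86 and 538 (-2.22), while FGFR1 had 14, 167 and 63 (3.40, 2.78 to 4.47). FGF2 and FGF5, which these receptors bind, were at 1.75 and 1.81.

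Genes that ERK signalling switches on as its own brakes and targets were higher in part. Of 32 feedback and immediate-early genes, 13 were higher and 2 lower (median 0.65, and 0.79 in CAL27/OXA). DUSP4, a phosphatase that removes phosphate from ERK, had 189, 1345 and 1150 counts (2.81, 2.60 to 3.05), and DUSP6, another, had 627, 1485 and 2374 (1.23). FOSL1, a subunit of the transcription factor AP-1, had 2805, 8377 and 21063 counts (1.57), while FOS was at -1.04, a call that ended when scaled by total counts or upper quartiles. PHLDA1 had 1827, 4438 and 12286 counts (1.27). All of these higher genes were also higher in the CAL27/OXA library.

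Of 28 collagens, 6 were higher and 3 lower. COL17A1, the collagen of hemidesmosomes, had 66476, 25563 and 69034 counts (-1.39, -1.41 to -1.36), and COL7A1, which forms the anchoring fibrils beneath them, had 23498, 7720 and 6831 (-1.61). COL4A1 and COL4A4, chains of the collagen network of basement membranes, were higher (1.12 and 2.11). ITGB4 and ITGA6, the integrin chains of hemidesmosomes, lay within 2-fold at -0.95 and -0.90. Among laminins, LAMB3 of the epithelial laminin lay at -0.31, while LAMB1, a chain of the more widespread laminins, had 4299, 11984 and 12521 counts and LAMA4, a chain of vascular and mesenchymal basement membranes, went from 104 to 369. COL8A1, a short-chain collagen, had 6, 2533 and 2760 counts (8.32).

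Of 32 matrix glycoproteins and proteoglycans, 11 were higher and 3 lower. THBS1, which encodes thrombospondin, an adhesive protein whose gene overlaps FSIP1 on the other strand, had 5936, 35384 and 12242 counts, giving a log2 ratio of 2.57 (2.53 to 2.61). FBN1 and FBN2, the fibrillins of elastic microfibrils, were at 3.78 and 2.27, on 18 and 752 counts in CAL27. FBLN1 was lower (-1.50). The list took 0.268% of all counts in CAL27 and 0.398% in CAL27/5FU. THBS1 alone had 5936 of its 112113 counts in CAL27 and 35384 of its 148347 in CAL27/5FU.

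Metalloproteinases, ADAMTS proteases and their TIMP inhibitors gave 15 higher and 4 lower of 30, with a median of 0.74 in CAL27/5FU and -0.11 in CAL27/OXA. ADAMTS12 had 9, 817 and 187 counts (6.22, 5.57 to 7.63), ADAMTS1 had 172, 843 and 1351 (2.27) and the membrane-bound MMP15 had 696, 2380 and 1090 (1.76). TIMP1 was higher (1.27) and TIMP3 lower (-1.68). Few of these genes were abundant, and 11 of the 15 had under 100 counts in CAL27. Of the fibroblast markers, which make much of the matrix in tissue, COL1A2 and LUM were higher (90 and 300 counts for COL1A2) and COL1A1, the most abundant, was at 1387 and 1068 counts. PDGFRB had 35 and 55 counts, FAP 5 and 9, DCN 2 and 6, PDGFRA 0 and 6, and COL3A1 and THY1 0 in both lines. The part of fibroblast RNA in the matrix values was not tested. Integrins, the matrix receptors, had 3 higher (13.6%) and 2 lower (9.09%) of 22, with a median of -0.28. Over all tested genes the shares were 8.46% and 6.72%. ITGA1, a collagen receptor chain, had 429, 1586 and 1068 counts (1.87). ITGB2 and ITGB3 were also higher (2.26 and 2.72), and ITGAM and ITGAX were lower (-2.63 and -1.72).

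**Figure D5:**
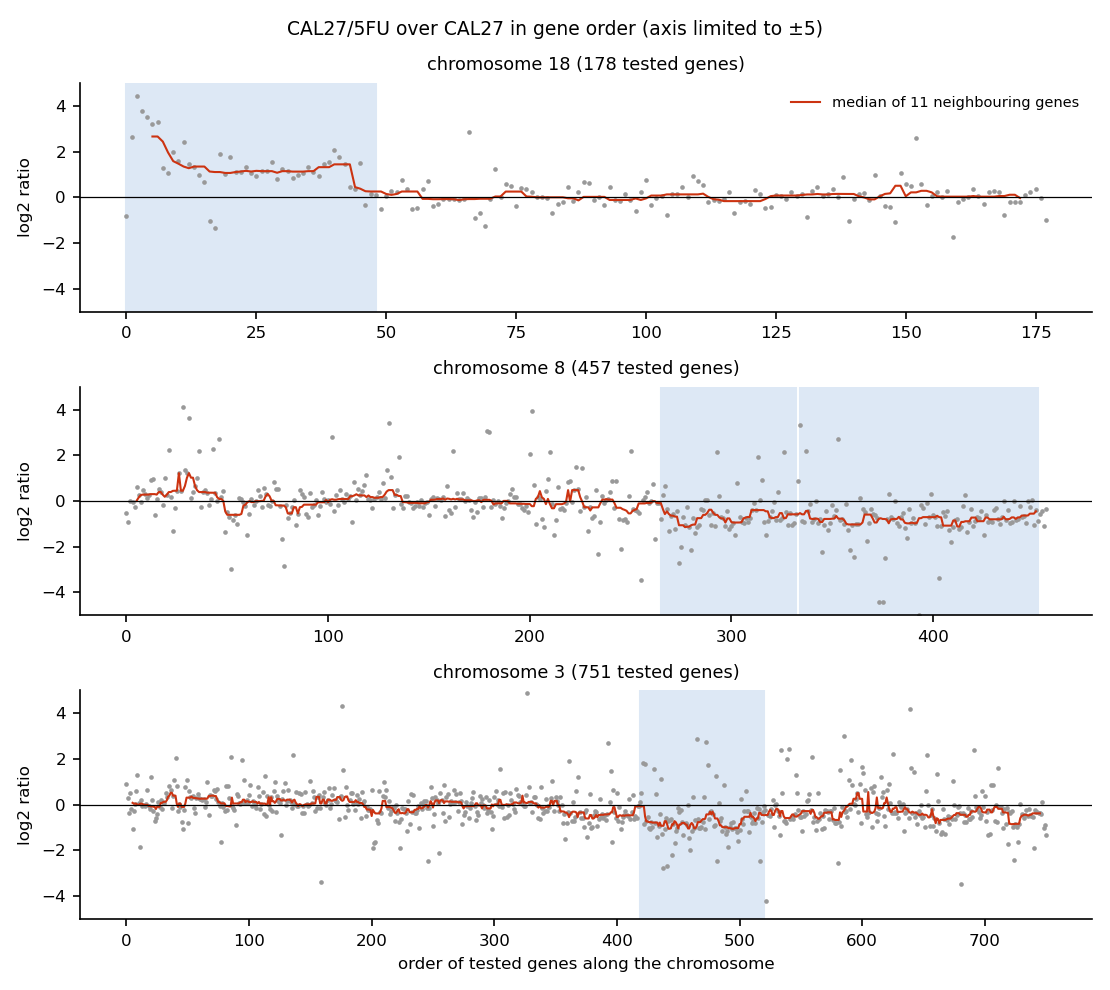
The log2 ratio of each tested gene on chromosomes 18, 8 and 3 in gene order, with the median over 11 neighbouring genes in red and the longest runs with a shifted median shaded. The red line lies above 0 over the first 49 genes of chromosome 18 and below 0 over the later part of chromosome 8 and over a middle stretch of chromosome 3. Genes beyond 5 on either side (0, 2 and 4 genes) fall outside the axis.

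HOX genes and nuclear receptors held more higher than lower genes. Of 35 tested HOX genes, which give cells their position along the body, 12 were higher and 1 lower (median 0.51). HOXA10 had 439, 1214 and 622 counts (1.46, 1.30 to 1.62) and HOXB9 had 163, 588 and 529 (1.83), and HOXD4 was lower on 27 and 9 counts. Of 38 nuclear receptors, 9 were higher and 4 lower, and the higher ones had few counts in CAL27 (PPARG 45 and 194, HNF4G 144 and 415). The lower ones were well expressed and 3 of them, PPARD, RARG and RXRA, act in epidermal differentiation, with RXRA at 11089, 5383 and 6744 counts (-1.05). With a mean of at least 50 counts, 5 receptors were higher and 4 lower and the median went from 0.19 to -0.10, and under scaling by total counts 11 were higher and 1 lower.

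Genes that make, bind and break down retinoic acid, a vitamin A product that opposes squamous differentiation, had 6 of 17 higher and 0 lower (median 0.62, and -0.25 in CAL27/OXA). ALDH1A3, which makes retinoic acid, had 4123, 20897 and 8364 counts (2.33, 2.29 to 2.38). CRABP2, which carries it to the nucleus, had 202, 955 and 289 (2.22), and STRA6, which takes up retinol, had 246, 585 and 2 (1.24). Axon guidance families, which steer cell migration in many tissues, had a median of 0.02 but a median absolute log2 ratio of 1.00, with 17 higher and 13 lower of 59, and 21 and 9 when scaled by total counts. NRP1, a co-receptor for semaphorins and VEGF, had 290, 1498 and 1051 counts (2.35) and EPHA2, an ephrin receptor of epithelia, had 4118, 9020 and 13385 (1.12). SEMA4B had 20256, 10043 and 7493 (-1.02), and SEMA4A was at -2.18.

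Large machines of the cell had few genes beyond 2-fold. Of 41 DNA replication genes 0 were beyond 2-fold, and so were 0 of 75 mitochondrial ribosomal proteins and 0 of 20 genes of the tricarboxylic acid cycle. Medians for these lists were -0.01, -0.03 and -0.12, which turned positive under scaling by total counts along with the median of all genes. Of 64 DNA repair genes, ALKBH2 was higher, and MGMT and MBD4 were lower, MBD4 at -1.02 and within 2-fold when scaled by total counts. Of 82 respiratory chain subunits, 3 were higher and 4 lower, and 72 had a negative ratio (median -0.29). Of 46 proteasome genes, PSMG2 was higher, and of 32 mitosis genes, NDC80 was higher while 31 had a negative ratio (median -0.32). Cytoplasmic ribosomal proteins had 78 of 82 ratios below 0 (median -0.39), with 3 just past 2-fold (RPL8, RPL30 and RPL35A, at -1.04, -1.03 and -1.03) that fell within it when scaled by total counts or upper quartiles, and took 4.40% of all parental counts, 3.65% of those of CAL27/5FU and 4.50% of those of CAL27/OXA.

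Ratios were also read along the chromosomes. In windows of 11 neighbouring tested genes, the longest runs with a median beyond 1.5-fold were chr8:118923557-144847509 and chr8:93754844-118111853 (119 and 68 tested genes, medians -0.78 and -0.72), chr3:113964137-134486716 (102 genes, -0.76), chr18:158383-21633524 (49 genes, 1.16) and chr9:126326849-129028303 (55 genes, -0.67), all on GRCh38. The runs were picked by these ratios, so their content is a description. Together the runs hold 2.87% of all tested genes and 6.89% of the genes beyond 2-fold. They hold 5 of the 7 respiratory chain genes beyond 2-fold (NDUFB4, NDUFB9, COX6C and UQCRB lower, NDUFV2 higher, with COX6C and UQCRB within 2-fold when scaled by total counts), RPL8 and RPL30 of the 3 lower ribosomal proteins, and PSMG2 and NDC80. NDRG1 and SQLE lie in the chromosome 8 runs. GRHL2 and MBD4, also named above as lower, lie in these longest runs as well. Shorter runs cover the kallikreins (chr19:49928702-52139922, 29 genes, median -2.13), the cornified envelope genes (chr1:151806071-153780157, 38 genes, -1.15), the type I keratins KRT14, KRT15 and KRT17 (chr17:40624962-41848384, 20 genes, -1.06), the class II genes (chr6:32164583-33212722, 27 genes, 0.67) and the HOXA genes (chr7:26291895-30478784, 28 genes, 0.66). YES1, a kinase of the SRC family on chromosome 18, had the largest gain in CPM of the genes beyond 2-fold, with 6372, 63720 and 8025 counts (3.31, 3.28 to 3.35), and MYL12B, a myosin light chain gene in the same run, had 15686, 40065 and 23360 (1.35). DNA copy number was not measured in these files.

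Genes with no count on one side closed the comparison. Of the higher genes, 45 had 0 counts in CAL27, and of the lower genes, 40 had 0 counts in CAL27/5FU. Of these, 28 and 12 fell short of the 30 counts that the filter needs and passed it only through CAL27/OXA. Among them, 4 and 3 had at most 3 counts on the other side and have no fold, and the lowest bounds of the rest were 1.33-fold and 1.34-fold. Among those at 0 in CAL27/5FU were KRT1 and KRT4, keratins of upper epithelial layers, with 44 and 40 counts in CAL27. PGR, the progesterone receptor, and ROBO1, an axon guidance receptor, were at 0 in CAL27 and were detected in both resistant lines (307 and 204 counts for PGR).

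Beside these values stand those of CAL27/OXA, which share the CAL27 library and so do not count as a repeat. Of the 1157 genes higher in CAL27/5FU, 558 were also higher in CAL27/OXA, 537 were within 2-fold and 62 were lower. Of the 919 lower genes, 536 were also lower, 357 within 2-fold and 26 higher. Against CAL27, 6.54% of the tested genes were higher in CAL27/OXA and 9.28% lower.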

How the data were processed

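RNA-seq of CAL27, CAL27/5FU and CAL27/OXA cells was used, with 1 library per line. The authors deposited 2 tables of the whole series, one of raw read counts per gene and one of FPKM values, which are counts relative to gene length and library size. Per the submitters' processing notes, CASAVA 1.8, HISAT2 2.0.5 and GRCh38 (hg38) were used. The counting tool, the annotation and the strand setting are not given in the sources used here, so that reads of overlapping genes on opposite strands may be mixed (ABCB1 with RUNDC3B, THBS1 with FSIP1). In each table, 3 columns of per-sample values whose names matched no label were not used. Whether they are further libraries of these lines is not given in the labels, so 1 library per line is a limit of the columns used. FPKM ratios equalled count ratios scaled by total counts in all 13587 genes with values above 0 in both lines (tolerance 0.01 on the log2 scale), so FPKM is no independent check.

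Counts were filtered (mean of at least 10), scaled by TMM and turned into log2 CPM with a prior count of 2 (R 4.3.3, edgeR 4.0.16, Python 3.11.15). The ratios and intervals were tested on simulated counts with planted changes, counting error only and known library sizes. That test could not check the scaling or variation between cultures. Alternatives used size factors of DESeq2 1.42.0, total counts, upper quartiles, other filters and prior counts, and FPKM. Positions came from GENCODE 29 and promoters from RefSeq, matched by symbol. The members and gene lists were chosen with earlier results of these data known. Genes were named when they were among the 12 largest rises or falls among genes averaging 100 counts or more, the 10 largest gains or losses in CPM, the most abundant or most changed members of a list, members of lists or roles of at most 12 genes, or cell type markers. CIITA, FASN, HLA-DRB5, IFI44L, IVL, KRT1, KRT4, KRT6B, KRT16, S100A1, SQLE and VEGFA were named after their values were seen. Some members of the lists enter the counts and medians but are not reported here by name.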

Additional observations from a re-analysis of the deposited data

Results flagged for a closer look

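The FPKM table lists 5 genes that the count table does not, and 2 of them had values above 0. SAMD11 was at 0.157 FPKM in CAL27/5FU, 0.0187 in CAL27 and 0.0631 in CAL27/OXA. NOC2L was at 78.5, 68.6 and 70.4. Both drew attention as signal outside the counts, and neither has a counting interval.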

How the results depend on the processing

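Higher genes numbered 1899 with no filter beyond 1 count, 760 with a mean of at least 50 counts, 503 on FPKM with a pseudocount of 1 and 749 when the whole 95% interval had to pass 2-fold. Lower genes numbered 1555, 655, 311 and 593 under the same settings. Under total counts they were 1432 and 699. Leaving out the genes of the 5 longest runs, an alternative chosen after seeing the data, gave 1108 and 825. Of 59 list medians, 18 changed sign under some setting and 13 changed sign relative to the median of all genes, and neither set held a median larger than 0.33 in size. Of 329 named or listed genes beyond 2-fold, 0 changed direction when called and 127 fell within 2-fold under some setting. Of the lower genes named above, COX6C, DSP, FOS, MBD4, RARG, RPL8, RPL30 and RPL35A did so when scaled by total counts. So did RXRA, SEMA4B, SFN, SREBF2, UQCRB and VWF. FPKM with a pseudocount of 1 changes both the scaling, to total counts, and the weight of low values, and their parts in the fall were not tested. On that scale the list medians were -1.82 for kallikreins, -0.37 for keratins, -0.61 for cornification and 0.24 for metalloproteinases. No paired analysis was possible because each line has 1 column that matches a label. Differences between cultures could not be measured from these columns.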

Other observations

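Ion channels and protocadherins were not described above. Of 80 ion channels, 18 were higher and 9 lower (median log2 ratio 0.21), and 6 and 7 of 51 with a mean of at least 50 counts (median 0.04). TRPV4, a calcium channel, fell from 215 counts to 14, and KCNN4, a calcium-activated potassium channel, from 518 to 71. KCNT2, a further potassium channel, went the other way with 7 and 88 counts. Of 36 protocadherins, 3 were higher and 4 lower. Of 21 tested cancer-testis and germline genes, 3 were higher and 2 lower, and 16 had a positive ratio (median 0.18). PRAME, a cancer-testis antigen among the lower ones, fell from 726 counts to 10.

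Promoters of the cholesterol list were searched, after its values were seen, for CCAAT and for CACCCCAC on both strands. CCAAT was in 16 of 18 and CACCCCAC in 1 of 18, against 43.0% and 3.88% of all tested genes. CCAAT was also in 15 of 18 promoters of the HOX list and 21 of 27 of the mitosis list. The E-box CACCTG was in 12 of 17 promoters of the cornification list, against 25.1% of all tested genes, and in 11 of 17 of the folate list. These are matches of letters, and binding was not measured.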
